A study of Mus musculus with 6 samples.

Results

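The genes described here encode the presynaptic side of the synapse: proteins of the synaptic vesicle, the SNARE machinery that fuses it with the membrane, the scaffold of the active zone where fusion takes place, and a few proteins of vesicle retrieval. They were chosen by symbol from a list of 38 names that leaves out the synaptotagmins. All 38 were found once each among the 55401 gene rows of the count table. The list was drawn up with earlier results of these data known. Counts of members beside shares of all genes are therefore a description and give no independent support. By role, 14 are vesicle proteins, transporters or vesicle-bound GTPases, 10 belong to the SNARE machinery, 11 to the active zone, and 3 (Snap91, Amph and Dnm1) act in vesicle retrieval, a class added here because they belong to none of the other roles. Bulk RNA sequencing had been carried out on cortex of C57BL/6 mouse embryos at embryonic day 18, with 3 libraries from wild type (WT) and 3 from homozygous Csmd3 knockouts. All embryos came from matings between heterozygous carriers. The allele is described only as a knockout, and neither the removed part of Csmd3 nor the number of embryos in a library is stated in the labels. The p-values therefore measure the spread between these libraries, which may be partly technical.

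A synaptic vesicle is filled with transmitter by a transporter in its membrane, is held near the release site by scaffold proteins of the active zone, and fuses when SNARE proteins of the vesicle and of the plasma membrane zip together after calcium enters. NSF and its partner SNAPs then pull the spent SNARE complex apart, and clathrin adaptors, amphiphysin and dynamin recover the vesicle membrane. In late embryonic cortex most neurons are still growing axons, and transcripts of this machinery are present before most synapses have formed and increase as they mature.

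The libraries are called WT-1 to WT-3 and KO-1 to KO-3 (labelled HOMO in the table). Library totals ran from 54244288 to 68269607 deposited counts, and a member had between 119 and 18715 counts in a library. Low counts pile up at 4, so a fragment may have added several counts, and the number of fragments behind a value is not known. Csmd3 itself was lower in knockout but still present, with 992, 765 and 867 counts against 675, 653 and 543 (log2 fold change -0.59, SE 0.13, adjusted p = 0.0233). That call did not hold without WT-1 (adjusted p = 0.0826) or without KO-1 (0.0905), KO-2 (0.0741) or KO-3 (0.101), so it checks the labels only weakly. The cortical identity genes Neurod2 and Neurod6 were abundant in all 6 libraries. Levels are given as CPM, counts scaled to library size with TMM factors, and fold changes as log2 of knockout over wild type from edgeR's quasi-likelihood test with Benjamini-Hochberg adjustment over 19844 genes, where an adjusted p under 0.05 is called. In bulk tissue, fewer cells of a type and less RNA per cell cannot be told apart.

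Of the 38 presynaptic genes 12 fell in the knockout libraries and 0 rose. Over all genes tested 2.53% fell and 5.21% rose. At an unadjusted p under 0.05, 22 members were lower (9.71% of all genes) and 0 higher (12.5% of all genes), and DESeq2 called 18 members lower and 0 higher (4.64% and 7.48% of all genes), limma-voom 16 and 0 (3.48% and 5.84%). The median log2 fold change of the members was -0.27, against 0.00 over all genes tested, and 34 of 38 lay below 0 (49.7% of all genes). In 23 members all 3 knockout libraries were below all 3 wild-type libraries (13.5% of all genes), including all 12 that fell; in 0 members were they all above (15.6% of all genes), and the groups overlapped in 15. The falls were moderate: among the 12 Erc2 fell by 17.4% and Doc2b fell by 46.6%, the ends of the range. By role, 6 of 14 vesicle genes, 3 of 10 SNARE genes, 2 of 11 active zone genes and 1 of 3 retrieval genes fell, with medians of -0.32, -0.26, -0.24 and -0.37. The differences between roles were not tested. The number of calls moved with single libraries: 3 were left with WT-1 removed (0.95% of all genes fell in that fit), 6 with WT-2 removed (1.1%), 16 with WT-3 removed (4.62%), 4 with KO-1 removed (0.907%), 3 with KO-2 removed (0.772%) and 1 with KO-3 removed (0.665%), while the median stayed between -0.30 and -0.22.

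**Figure D1:**
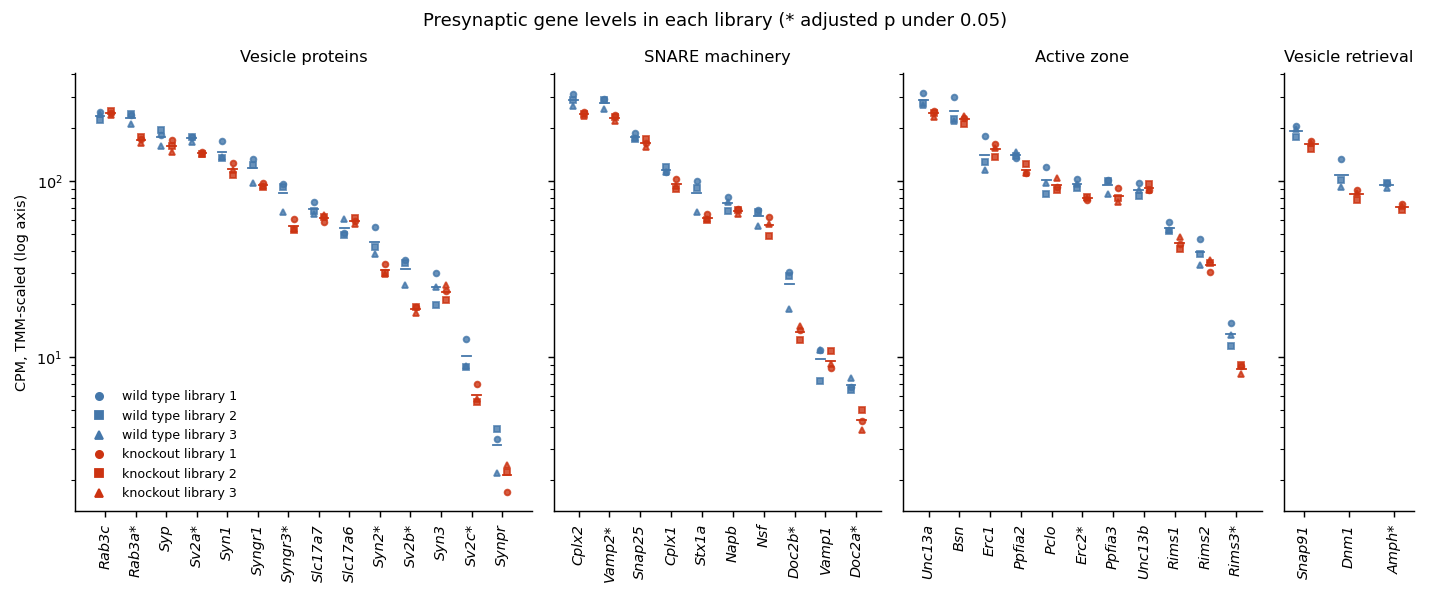
TMM-scaled CPM on a log axis of every member in every library, with 1 panel per role and genes ordered by mean wild-type level; symbols mark the library number, blue is wild type, red is knockout, short lines are group means and an asterisk marks an adjusted p under 0.05. In most genes the red points sit below the blue ones, and the blue points are often the more spread out.

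**Figure D2:**
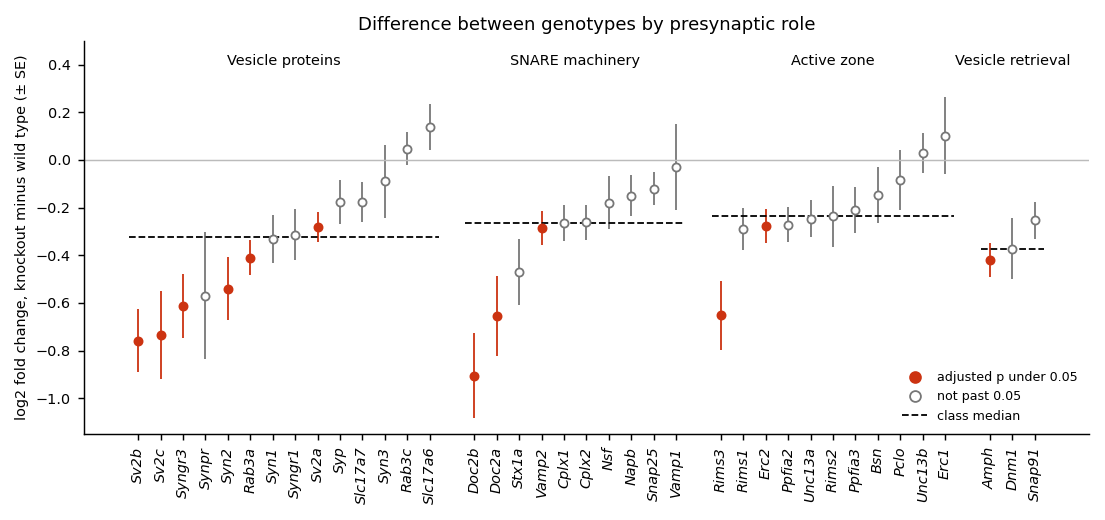
Log2 fold change of each member, knockout minus wild type, with its standard error, ordered within each role; filled red points have an adjusted p under 0.05 and dashed lines are the medians of each role. Of the 38 points 34 lie below 0, and Slc17a6, Rab3c, Unc13b and Erc1 lie above it.

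Compared per length, as TPM from the counts and the merged exon length, the machinery was led by Rab3a at 351 ± 20.7 TPM (SD, n = 3) in wild type, followed by the vesicle SNARE gene Vamp2 (250.1 ± 15.1), the complexin genes Cplx2 (201 ± 17.1) and Cplx1 (179.8 ± 2.17) and Syn1 (153 ± 21.9). The 10 highest members held 64.7% of the summed member TPM. The lowest were Sv2c (3.61 ± 0.838), Vamp1 (3.31 ± 0.792) and Synpr (1.15 ± 0.292). Calls were found at both ends of this range, with 5 among the 19 members of higher mean TPM (median log2 fold change -0.27) and 7 among the 19 of lower mean TPM (median -0.24).

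Vesicle proteins held the most calls. The SV2 proteins are glycoproteins of synaptic vesicles, bind synaptotagmin and serve as entry receptors for botulinum toxin, and all 3 of their genes fell. Sv2b (ENSMUSG00000053025.13, chromosome 7, 75114894 to 75309262, minus strand) was at 35.5, 33.97 and 25.5 CPM in WT-1 to WT-3 and 19.1, 19.2 and 17.9 CPM in KO-1 to KO-3. All 3 knockout libraries lay well below the lowest wild-type library (log2 fold change -0.76, SE 0.13, adjusted p = 0.00966). Sv2a (ENSMUSG00000038486.9, chromosome 3, 96181151 to 96195521, plus strand), the most abundant SV2 gene, was at 177, 178 and 166 CPM in WT-1 to WT-3 and 145, 141 and 142 CPM in KO-1 to KO-3. The groups did not overlap, and the fall was small but the libraries of each genotype lay close together (log2 fold change -0.28, SE 0.06, adjusted p = 0.0273). Sv2c (ENSMUSG00000051111.16, chromosome 13, 95954594 to 96132577, minus strand), the rarest of the 3, was at 12.7, 8.84 and 8.94 CPM in WT-1 to WT-3 and 7.03, 5.55 and 5.75 CPM in KO-1 to KO-3 (log2 fold change -0.73, SE 0.18, adjusted p = 0.0413). Its WT-1 stood above the other 2 of its group, and without it the log2 fold change was -0.55.

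Rab3 GTPases sit on the vesicle and tether it to the active zone through RIM proteins. Rab3a (ENSMUSG00000031840.12, chromosome 8, 70754679 to 70758677, plus strand) was at 234, 239 and 208 CPM in WT-1 to WT-3 and 173, 176 and 164 CPM in KO-1 to KO-3. The groups were clearly apart (log2 fold change -0.41, SE 0.07, adjusted p = 0.0109), and Rab3a fell by 24.7%. Its relative Rab3c, present at a similar CPM, was at 245, 219.6 and 238 CPM in WT-1 to WT-3 and 241, 249.9 and 235 CPM in KO-1 to KO-3. Those groups overlapped and Rab3c did not pass (log2 fold change 0.05, SE 0.07, adjusted p = 0.751). Synapsins coat the vesicle and hold the reserve pool. Syn2 (ENSMUSG00000009394.13, chromosome 6, 115134902 to 115282006, plus strand) was at 54.5, 42.4 and 38.5 CPM in WT-1 to WT-3 and 33.6, 30.1 and 29.4 CPM in KO-1 to KO-3 (log2 fold change -0.54, SE 0.13, adjusted p = 0.0365), with WT-1 above the others. Syn1, the most abundant synapsin, was at 168, 134 and 137 CPM in WT-1 to WT-3 and 126, 108 and 115 CPM in KO-1 to KO-3 and did not pass although its groups did not overlap (log2 fold change -0.33, SE 0.10, adjusted p = 0.0780). Syn3 was at -0.09 (SE 0.15, adjusted p = 0.796); 14.1% of its exon length overlaps Timp3 on the opposite strand, which rose (0.60, SE 0.15, adjusted p = 0.0401), and how the counting treated strand is not stated in the labels.

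Synaptogyrins and synaptophysins are abundant vesicle proteins that span the membrane several times. Syngr3 (ENSMUSG00000007021.5, chromosome 17, 24685092 to 24689955, minus strand) was at 95.6, 91.7 and 66.7 CPM in WT-1 to WT-3 and 60.3, 52.8 and 52.9 CPM in KO-1 to KO-3. The lowest wild-type library, number 3, still lay above every knockout library (log2 fold change -0.61, SE 0.13, adjusted p = 0.0265). Syngr1 was at -0.31 (SE 0.11, adjusted p = 0.114), Synpr at -0.57 (SE 0.27, adjusted p = 0.249) and Syp, the classic vesicle marker, at -0.18 (SE 0.09, adjusted p = 0.309), and these did not pass. Syngr1 was at 132, 123 and 97.6 CPM in WT-1 to WT-3 and 97.7, 92.7 and 93.5 CPM in KO-1 to KO-3, so that WT-3 lay level with KO-1. Syp was at 182, 194 and 157 CPM in WT-1 to WT-3 and 169, 157 and 146 CPM in KO-1 to KO-3, with overlapping groups, and 16.8% of its exon length overlaps the antisense gene Gm14703. Neither vesicular glutamate transporter gene passed. Slc17a7 (VGLUT1), the transporter of most cortical excitatory synapses, was at 75.8, 66.9 and 64.8 CPM in WT-1 to WT-3 and 58.03, 61.9 and 63.7 CPM in KO-1 to KO-3 (log2 fold change -0.18, SE 0.08, adjusted p = 0.264), with the highest knockout library just below the lowest wild-type one. Slc17a6 (VGLUT2), known from thalamic inputs and young cortical neurons, was at 50.6, 49.5 and 60.9 CPM in WT-1 to WT-3 and 59.3, 61.2 and 56.5 CPM in KO-1 to KO-3 (log2 fold change 0.14, SE 0.10, adjusted p = 0.462). In Slc17a6 the groups overlapped.

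Among the 6 vesicle genes that fell, Rab3a and Sv2b kept their calls with any library but KO-3 left out (adjusted p = 0.0682 and 0.0559 without it). Syngr3 lost its call without WT-1, WT-2, KO-2 or KO-3 (highest adjusted p = 0.113), and Syn2, Sv2a and Sv2c lost theirs without any library but WT-3 (highest 0.150, 0.129 and 0.155). Syn2 and Sv2c also lost theirs in a fit that is not robust.

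In the SNARE machinery every one of the 10 genes lay below 0, and 3 fell. Vamp2 (ENSMUSG00000020894.16, chromosome 11, 69088490 to 69092384, plus strand), the vesicle SNARE of forebrain synapses, was at 289.9, 285 and 256 CPM in WT-1 to WT-3 and 235, 229 and 218 CPM in KO-1 to KO-3. The groups did not overlap (log2 fold change -0.29, SE 0.07, adjusted p = 0.0402), and Vamp2 fell by 18.04%. Vamp1, its relative known from brainstem and spinal cord, was far rarer at 10.9, 7.32 and 11.03 CPM in WT-1 to WT-3 and 8.73, 10.8 and 9.11 CPM in KO-1 to KO-3, with overlapping groups (log2 fold change -0.03, SE 0.18, adjusted p = 0.949). Of the plasma membrane SNARE genes, Stx1a, which encodes syntaxin, was at 100.1, 90.4 and 66.1 CPM in WT-1 to WT-3 and 65.1, 59.7 and 60.6 CPM in KO-1 to KO-3 (log2 fold change -0.47, SE 0.14, adjusted p = 0.0826). Its WT-3 was just above KO-1 and well below WT-1 and WT-2. Snap25, whose product gives the complex its other helices, was at 186, 172 and 174 CPM in WT-1 to WT-3 and 164, 172 and 154 CPM in KO-1 to KO-3 (log2 fold change -0.12, SE 0.07, adjusted p = 0.356). Neither passed, though in both all knockout libraries were below all wild-type libraries. In Snap25 they were only barely apart, at 171.7 CPM in KO-2 against 172.2 CPM in WT-2.

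Doc2 proteins are C2-domain calcium sensors linked to spontaneous and asynchronous release, and both genes fell. Doc2b (ENSMUSG00000020848.7, chromosome 11, 75768966 to 75796049, minus strand) showed the largest fall of any member, at 30.4, 29.02 and 18.8 CPM in WT-1 to WT-3 and 14.2, 12.4 and 15.1 CPM in KO-1 to KO-3 (log2 fold change -0.91, SE 0.18, adjusted p = 0.0169). WT-3 was nearer to the knockout libraries than its 2 counterparts. Doc2a (ENSMUSG00000052301.14, chromosome 7, 126847416 to 126852705, plus strand) was rarer, at 6.74, 6.48 and 7.61 CPM in WT-1 to WT-3 and 4.35, 5.03 and 3.84 CPM in KO-1 to KO-3 (log2 fold change -0.65, SE 0.17, adjusted p = 0.0447). In Doc2a the groups did not overlap. However, 39.4% of its exon length overlaps Ino80e on the opposite strand, which was more abundant and near 0 (-0.02, SE 0.09, adjusted p = 0.909), so the counts of Doc2a are uncertain.

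The complexins clamp and then promote fusion, and their genes had like values without passing: Cplx1 was at -0.26 (SE 0.08, adjusted p = 0.0671) and Cplx2 at -0.26 (SE 0.07, adjusted p = 0.0650), with groups that did not overlap in either. Cplx2, the more abundant, was at 311, 288 and 264 CPM in WT-1 to WT-3 and 246, 239.7 and 234 CPM in KO-1 to KO-3. Cplx1 was at 112, 119.6 and 112 CPM in WT-1 to WT-3 and 103, 89.5 and 93.7 CPM in KO-1 to KO-3. In both, the highest knockout library was KO-1. Nsf, the ATPase that takes SNARE complexes apart, was at -0.18 (SE 0.11, adjusted p = 0.404), and Napb, its beta-SNAP adaptor, at -0.15 (SE 0.09, adjusted p = 0.350), both with overlapping groups. Doc2a lost its call without any 1 of the 6 libraries (highest adjusted p = 0.159), and Vamp2 and Doc2b lost theirs without any library but WT-3 (highest 0.176 and 0.0721), and Vamp2 also in a fit that is not robust. DESeq2 called 6 SNARE genes lower, adding Stx1a, Cplx1 and Cplx2.

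Of the 11 active zone genes 9 lay below 0 and 2 fell. Rims3 (ENSMUSG00000032890.17, chromosome 4, 120854816 to 120896579, plus strand), a short RIM that holds only the C-terminal C2 domain, was at 15.7, 11.6 and 13.3 CPM in WT-1 to WT-3 and 8.86, 8.97 and 7.99 CPM in KO-1 to KO-3. Every knockout library was below every wild-type library (log2 fold change -0.65, SE 0.14, adjusted p = 0.0253). Erc2 (ENSMUSG00000040640.11, chromosome 14, 27622428 to 28478537, plus strand), a coiled-coil scaffold that binds RIM and bassoon, was at 102, 91.2 and 95.8 CPM in WT-1 to WT-3 and 78.1, 80.6 and 80.04 CPM in KO-1 to KO-3. Its 3 knockout libraries lay close together (log2 fold change -0.28, SE 0.07, adjusted p = 0.0467). Its widely expressed relative Erc1 was at 178, 128 and 116 CPM in WT-1 to WT-3 and 162, 137 and 154 CPM in KO-1 to KO-3, with overlapping groups and a wide spread in wild type (log2 fold change 0.10, SE 0.16, adjusted p = 0.780); 11.8% of its exon length overlaps the antisense gene Gm44317.

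The RIM proteins recruit calcium channels and priming factors to the release site. Rims1 was at 58.2, 51.97 and 52.5 CPM in WT-1 to WT-3 and 43.9, 41.2 and 48.01 CPM in KO-1 to KO-3, with groups apart. The large RIM genes Rims1 (log2 fold change -0.29, SE 0.09, adjusted p = 0.0849) and Rims2 (log2 fold change -0.24, SE 0.13, adjusted p = 0.332) did not pass. Munc13 proteins prime vesicles for fusion. Unc13a, the main isoform of forebrain excitatory synapses, was at 314, 275 and 268 CPM in WT-1 to WT-3 and 249.9, 242 and 230.1 CPM in KO-1 to KO-3 (log2 fold change -0.25, SE 0.08, adjusted p = 0.0896), groups apart but not called, whereas Unc13b overlapped (log2 fold change 0.03, SE 0.08, adjusted p = 0.879). The giant scaffolds bassoon and piccolo, which outline the active zone early in synapse formation, were near 0: Bsn at -0.15 (SE 0.12, adjusted p = 0.525) and Pclo at -0.08 (SE 0.13, adjusted p = 0.766). In both, WT-1 was the highest of all 6 libraries (298 CPM for Bsn and 119.9 CPM for Pclo), and without it the log2 fold changes were -0.0015 and 0.05. The liprin-alpha genes, whose proteins recruit vesicle cargo to the zone, were at -0.27 (SE 0.07, adjusted p = 0.0569) for Ppfia2, whose groups did not overlap, and -0.21 (SE 0.10, adjusted p = 0.245) for Ppfia3, and neither passed; 22.3% of the exon length of Ppfia2 overlaps Acss3 on the opposite strand, which had at most 33 counts in a library. With 1 library left out, Rims3 and Erc2 kept their calls only without WT-2 or WT-3 (highest adjusted p 0.115 and 0.165 when WT-1 or a knockout library was left out). Erc2 also lost its call under upper-quartile scaling, with no filter on low counts and in a fit that is not robust.

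Of the retrieval genes, Amph (ENSMUSG00000021314.13, chromosome 13, 18948205 to 19150921, plus strand) had the smallest p of any member. It encodes amphiphysin, which bends membrane and brings dynamin to clathrin-coated pits. It was at 97.5, 96.5 and 90.8 CPM in WT-1 to WT-3 and 73.5, 68.2 and 71.5 CPM in KO-1 to KO-3. The knockout libraries lay well below the lowest wild-type library (log2 fold change -0.42, SE 0.07, adjusted p = 0.00846), so that Amph fell by 25.2%. Amph was the only member called with each of the 6 libraries left out in turn (log2 fold change -0.45 to -0.38, highest adjusted p = 0.0472). Dnm1, the neuronal dynamin that cuts vesicles free, was at -0.37 (SE 0.13, adjusted p = 0.128), and Snap91, the clathrin adaptor AP180, at -0.25 (SE 0.08, adjusted p = 0.0849); in both the groups did not overlap and neither passed. Dnm1 was at 132, 100.5 and 92.3 CPM in WT-1 to WT-3 and 88.5, 77.7 and 84.8 CPM in KO-1 to KO-3. Snap91 was at 205, 176 and 195 CPM in WT-1 to WT-3 and 168, 151 and 164 CPM in KO-1 to KO-3. In Dnm1 the single high value was WT-1. Dnm1 was called without WT-3 and Snap91 without WT-2.

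**Figure D3:**
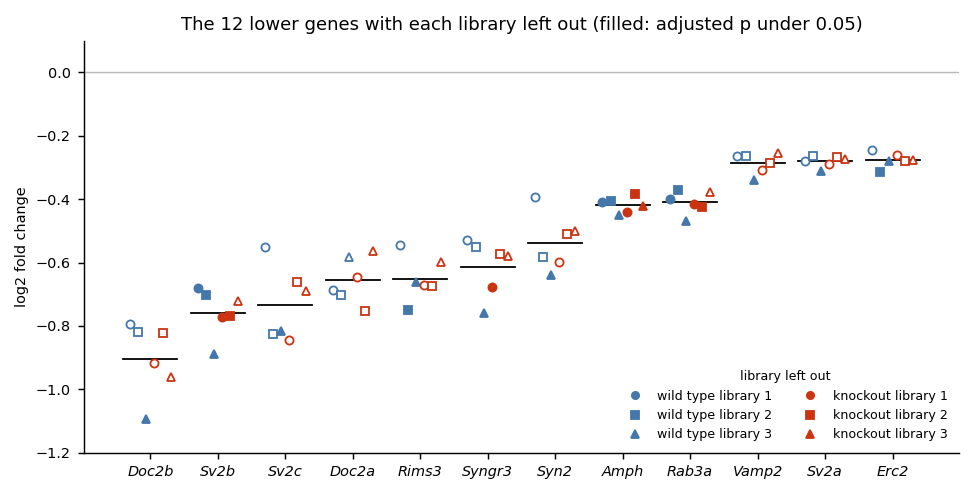
Log2 fold change of the 12 genes that fell, with each library left out in turn; colour and symbol name the library left out, filled points keep an adjusted p under 0.05 and black lines are the values over all 6 libraries. All values stay below 0, and of the 12 genes only Amph has 6 filled points.

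In most members the wild-type libraries were the more spread out. WT-1 was the highest of its group in 29 of 38 members and the lowest in 2. How often this held over all genes was not counted. The median member lay 0.13 above the wild-type mean in WT-1 (log2 CPM), and 0.05 and 0.09 below it in WT-2 and WT-3, whereas the knockout libraries lay at -0.24, -0.28 and -0.29. Over all genes tested the same medians were 0.003, 0.008 and -0.002 in WT-1 to WT-3 and 0.006, 0.022 and 0.015 in KO-1 to KO-3. The pan-neuronal list also lay above the wild-type mean in WT-1, by 0.096. The SD of log2 CPM was larger in wild type than in knockout for 32 of 38 members (62.2% of all genes tested), with a median SD of 0.16 in wild type and 0.09 in knockout over members and 0.20 and 0.15 over all genes. Without WT-1 the members kept a median of -0.22, and the calls left were Rab3a, Amph and Sv2b. Ttr, which encodes a carrier protein made by the choroid plexus, had 2262 counts in KO-2 and 25057 in KO-3, against 131 in KO-1 and at most 4 in wild type. Over the choroid plexus list the median difference from the wild-type mean (log2 CPM) was 2.82 in KO-1, 2.20 in KO-2 and 4.04 in KO-3. Genes of this list were thus higher in KO-1 too, although KO-1 had fewer Ttr counts than KO-2. Which cells these transcripts came from was not tested. Without KO-2 and KO-3, edgeR called 0 members lower (7 at an unadjusted p under 0.05; 0.196% of all genes lower by adjusted p) and the median was -0.24, in a fit that assumes that the lone knockout library varied like the others.

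Ratios between related genes within a library do not depend on the scaling between libraries, and show whether relatives moved together. The 17 pairs were chosen after the values were seen and use the same levels as the calls above, so they give no separate support. In 8 pairs the groups of ratios did not overlap, and the share among other gene pairs was not computed. The ratio of Rab3a to Rab3c per length (log2) was 2.37, 2.56 and 2.25 in WT-1 to WT-3 and 1.96, 1.93 and 1.92 in KO-1 to KO-3, that is 5.25-fold against 3.83-fold on average. The knockout libraries were nearly equal and all below wild type. The ratio of Sv2b to Sv2a was -3.17, -3.24 and -3.55 in WT-1 to WT-3 and -3.78, -3.74 and -3.85 in KO-1 to KO-3, and that of Sv2c to Sv2a -4.87, -5.40 and -5.28 in WT-1 to WT-3 and -5.43, -5.74 and -5.69 in KO-1 to KO-3. Thus the rarer SV2 genes stood lower beside Sv2a in each knockout library. Syngr3 over Syngr1 (-0.30, knockout minus wild type), Rims3 over Rims1 (-0.35) and Syn2 over Syn1 (-0.20) were lower without overlap as well, while Unc13b over Unc13a (0.28) and Syn3 over Syn1 (0.25) were higher. The exons of Syn3 overlap those of Timp3, which rose, and the part of that overlap in the Syn3 ratio was not tested. The ratio of the complexins, Cplx1 over Cplx2, was at -0.01, and Slc17a6 over Slc17a7 was 0.32 and in both the groups overlapped. An exact two-sided permutation test of 3 against 3 libraries cannot go below p = 0.1; the 8 pairs reached that value, and adjusted over 17 pairs the smallest was 0.213, so no ratio passed.

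**Figure D4:**
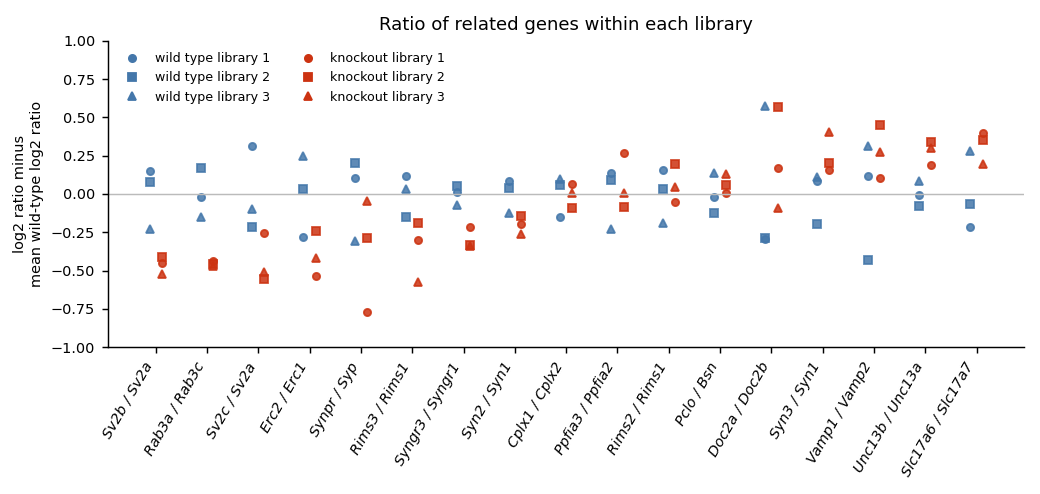
Log2 ratio per length of 17 pairs of related members in each library, centred on the mean wild-type ratio of the pair; blue is wild type, red is knockout and symbols mark the library number. In Rab3a / Rab3c the 3 red points coincide below all blue points, and in Cplx1 / Cplx2 the colours mix.

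Other genes of the presynapse were read from a list of 60 that holds no member. Of 58 tested, 10 fell and 0 rose by edgeR (2.53% and 5.21% of all genes), with a median of -0.21. At an unadjusted p under 0.05, 23 were lower and 2 higher (9.71% and 12.5% of all genes). DESeq2 called 17 lower and 1 higher (4.64% and 7.48% of all genes), and limma-voom 16 and 1 (3.48% and 5.84%). Among those that fell were Sncb (-0.73, SE 0.18, adjusted p = 0.0474), Prrt2, a SNARE regulator linked to paroxysmal movement disorders (-0.69, SE 0.14, adjusted p = 0.0154), and the GTPase gene Rab3b (-0.62, SE 0.10, adjusted p = 0.00831). With 1 library left out the number that fell ran from 1 (without WT-1 or KO-3) through 2 (without WT-2 or KO-1 or KO-2) to 16 (without WT-3).

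The presynaptic falls stood beside shifts in marker lists of other cells. Over all genes tested by edgeR, 2.53% fell and 5.21% rose. Among general neuronal genes 11 of 28 fell and 0 rose by edgeR (18 and 2 at an unadjusted p under 0.05; DESeq2 called 1 higher and limma-voom 0), with a median of -0.26 and a summed level of 20300.0 to 23260.0 CPM in wild type and 16760.0 to 18340.0 in knockout. That count ranged from 4 to 15 with 1 library left out, falling to 5, 5 and 4 without KO-1, KO-2 and KO-3. Cortical identity genes had a median of 0.10, and 1 of 12, Cux2 (-0.39, SE 0.07, adjusted p = 0.0140), fell, a call lost without any 1 of the knockout libraries. Interneuron genes had 2 of 12 lower, Npy (-0.91, SE 0.11, adjusted p = 0.00153) and Sst (-0.84, SE 0.19, adjusted p = 0.0276), a count of 1 without any library but WT-3. Progenitor and dividing cell genes rose in 13 of 19 (median 0.60, summed 1469 to 1637 CPM in wild type and 2179 to 2352 in knockout).

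Non-neural cells gave larger differences. Meningeal and mural genes rose in 18 of 20 (summed 240.4 to 243 CPM in wild type and 987 to 1256 in knockout), endothelial genes in 9 of 12 (267 to 303 and 458 to 570.0 CPM) and microglia and macrophage genes in 13 of 18 (57.2 to 65.02 and 151 to 179 CPM). The last count was 8 without WT-1 and 6 without KO-1 or KO-3, and Ms4a7 was at 0 in all wild-type libraries. Choroid plexus genes rose in 2 of 8 tested (7.77 to 9.25 and 36.1 to 521 CPM, highest in KO-3), with Folr1 at 0 in wild type. Erythroid genes rose in 0 of 8 by edgeR (1 at an unadjusted p under 0.05; DESeq2 called 0 and limma-voom 0; 1520.0 to 2106 and 1886 to 2203 CPM). Of nearby brain regions, striatal genes had 3 of 11 higher and 1 lower (66.2 to 78.99 and 85.5 to 99.2 CPM). Thalamic genes had 1 of 6 tested lower (43.6 to 53.1 and 45.4 to 51.8 CPM, Shox2 at 0 in wild type). These calls changed when any of several libraries was left out. The 3 higher striatal genes became 0 without KO-1, 1 without KO-2 or KO-3 and 2 without WT-1 or WT-2. The lower striatal one was lost without WT-2, KO-2 or KO-3, and the lower thalamic one without WT-1, WT-2, KO-2 or KO-3. With KO-1 as the lone knockout library, 12 meningeal, 4 macrophage, 3 choroid plexus, 1 endothelial and 1 dividing cell gene were higher and 1 pan-neuronal gene lower. The part of these cells in the presynaptic falls was not tested.

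**Figure D5:**
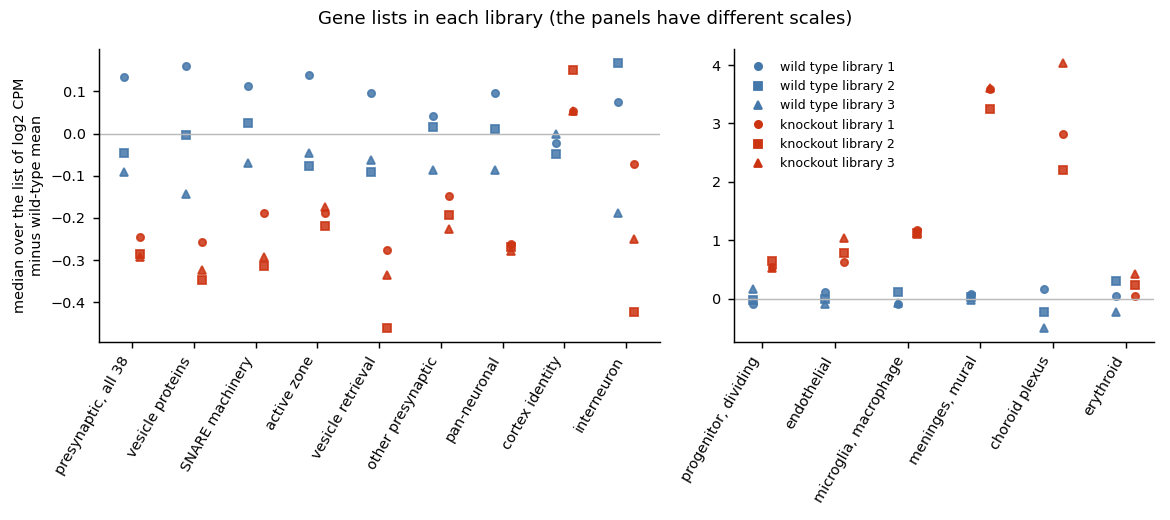
Median over each gene list of log2 CPM minus the wild-type mean, for each library; blue is wild type, red is knockout and symbols mark the library number, and the panels have different scales. The knockout points of the presynaptic and pan-neuronal lists lie below all wild-type points, and those of dividing, endothelial, macrophage, meningeal and choroid plexus lists above them.

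Promoters were read for the members because so many lay on the same side of 0. Of the 38 genes 31 matched the RefSeq promoter table (GRCm38.p6) with 38 starts in all; Rims2, Snap25, Doc2a, Doc2b, Vamp2, Syn3 and Syngr3 did not match. In the 250 bases before the start, the median GC content was 61.2% over member promoters, 58.8% over the 13 promoters of 8 members that fell, and 52.4% over all 32851 promoters. The GC box GGGCGG, searched on both strands as every motif here, was in 57.9% of member promoters and 32.7% of all. By gene it was in 22 of the 31 members matched and in 5 of the 8 that fell. No comparison with promoters of like GC content was made. The sequence CAGATG, an E-box read by proneural factors, was in 13.2% and 14.4%, and TATAAA in 5.26% and 12.4%. TGACGTCA, the cyclic AMP response element, was in 1 member promoter (2.63%; 1.55% of all). The motif RE1, at which the repressor REST silences neuronal genes outside neurons, was searched by its consensus with up to 4 mismatches over 19 fixed positions, and was found in 1 member promoter (2.63%; 0.183% of all). No 2 of these motifs overlapped in the stretches printed. A match is a description only.

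The stretches that follow are shown 5′ to 3′ on the strand of the gene, for Syn1, the single member with an RE1 match, and for Amph, Rab3a and Sv2b, whose falls held in most fits with a library left out; each ends before the annotated gene. Capitals mark RE1 and then TGACGTCA in Syn1 (chrX:20921059-20921168, minus strand), a GC box on the opposite strand in Rab3a (chr8:70754453-70754678, plus strand) and TATAAA on the opposite strand in Sv2b (chr7:75309263-75309512, minus strand). In Amph (chr13:18948101-18948204, plus strand) there was no match and nothing is capitalised. The RE1 match of Syn1 begins 232 bases before the start and differs from the searched letters at 2 positions.
Syn1: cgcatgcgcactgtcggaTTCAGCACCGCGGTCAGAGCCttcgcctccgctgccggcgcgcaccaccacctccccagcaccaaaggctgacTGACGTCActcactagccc
Amph: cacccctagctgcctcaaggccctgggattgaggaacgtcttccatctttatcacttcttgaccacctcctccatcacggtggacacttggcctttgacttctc
Rab3a: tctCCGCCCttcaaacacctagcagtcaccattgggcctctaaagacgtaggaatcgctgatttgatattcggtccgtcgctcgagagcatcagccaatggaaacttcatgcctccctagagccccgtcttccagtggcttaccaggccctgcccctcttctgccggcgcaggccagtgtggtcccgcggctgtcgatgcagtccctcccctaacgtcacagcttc
Sv2b: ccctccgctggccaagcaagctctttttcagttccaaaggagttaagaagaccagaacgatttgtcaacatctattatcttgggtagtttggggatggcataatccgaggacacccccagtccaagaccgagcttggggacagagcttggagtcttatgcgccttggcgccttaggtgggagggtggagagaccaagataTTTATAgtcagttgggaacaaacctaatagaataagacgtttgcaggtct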

How the data were processed

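The authors deposited a table of whole-number gene counts, 1 column per library for 6 libraries of mouse cortex RNA. Per the submitters' processing notes, FastQC 0.11.9, Trim Galore 0.4.4, HISAT2 2.0.5 and StringTie 1.3.4 and the build mm10 were used, without their roles; the counting program, annotation and strand handling are not stated there. The deposited values were treated as estimated counts, since in WT-1 1298 genes had a count of 4 against 492 at 3 and 318 at 5, so that a fragment may have added about 4; they were already whole. Identifiers were matched to GENCODE M21 (55141 of 55401 rows named; unnamed rows held at most 0.0238% of counts), which also gave coordinates and exon lengths.

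Groups follow the genotype in the labels. Genes kept by filterByExpr (19844) were scaled by TMM. The main test was edgeR 4.0.16 under R 4.3.3 (glmQLFit with the robust option, then glmQLFTest), with Benjamini-Hochberg adjustment and a threshold of 0.05; the SE is the absolute log2 fold change over the square root of F. Log2 CPM used a prior count of 2. TPM was computed from the counts. The script was tested on simulated data. Alternatives were RLE and upper-quartile scaling, no filter, CPM of at least 1 in 3 libraries, DESeq2 1.42.0, limma-voom (limma 3.58.1), a replicate block, a fit that is not robust, counts divided by 4, and libraries left out. All 38 members are named; from every other list, up to 4 called genes by size in each direction and the 3 most abundant markers could be named. Genes that overlap a member on the opposite strand and markers at 0 in wild type were named in addition, after their values were seen. Members, lists and alternatives were chosen with earlier results of these data known. The lists are other presynaptic, pan-neuronal, cortical identity, interneuron, progenitor and dividing, meningeal and mural, endothelial, microglia and macrophage, choroid plexus, erythroid, striatal and thalamic genes.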

Additional observations from a re-analysis of the deposited data

How the results depend on the processing

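The direction of the member median held under every alternative run. In the main edgeR fit 12 members and 503 of all 19844 genes tested (2.53%) were lower. RLE scaling gave 12 and 518, upper-quartile scaling 11 (without Erc2) and 490, and no filter 11 (without Erc2) and 478. CPM of at least 1 in 3 libraries gave 12 and 529, DESeq2 18 and 921 (4.64% of all genes), and limma-voom 16 and 690 (3.48%). Counts divided by 4 gave 15 and 612. A fit that is not robust gave 8 (without Syn2, Sv2c, Vamp2 and Erc2) and 394. Members higher were 0 in each. Among these settings, those with more members lower than the main fit also had a higher count of all genes lower. Those with fewer members lower had a lower count. These are counts, and the number of genes tested changes with the filter. Shares were not computed for the other scalings and filters, the divided counts, the fit that is not robust or the replicate block. The count of all genes lower was 255 with the replicate number as a block. With that block members lower were 6 (Sv2a, Vamp2, Doc2a, Doc2b, Rims3 and Erc2 lost their calls), and other presynaptic genes lower were 4. The labels do not say whether equal numbers pair the samples. Correlations of same-numbered libraries (0.0283, -0.00263 and 0.00163) showed no pairing but cannot exclude it. The block leaves fewer residual degrees of freedom. Members lower were 0 without knockout libraries 2 and 3 and 1 to 16 with 1 library left out. Without knockout libraries 2 and 3 the medians were -0.24 for members, -0.25 for vesicle, -0.18 for SNARE and -0.18 for active zone genes, and 1 other presynaptic gene was lower. With 1 library left out, medians ran from -0.30 to -0.22 (members), -0.40 to -0.26 (vesicle), -0.28 to -0.18 (active zone) and -0.45 to -0.22 (retrieval); limma-voom gave -0.26 for active zone genes. Other presynaptic genes lower were 17 by DESeq2, 16 by limma-voom and 1 to 16 with 1 library left out; 1 was higher under upper-quartile scaling, no filter, CPM of at least 1, DESeq2, limma-voom and counts divided by 4, and 0 to 1 with 1 library left out. Uncalled members near 0 changed sign with 1 library left out: Syn3 (-0.23 to 0.0559) and Pclo (-0.20 to 0.0523) without WT-1, Vamp1 (-0.20 to 0.0674) without WT-1, WT-3, KO-1 or KO-3, Unc13b (-0.0303 to 0.0873) without WT-2 and Erc1 (-0.0205 to 0.30) without WT-3. The thalamus median was -0.42 without a filter, -0.827 without knockout libraries 2 and 3 and -0.31 to 0.26 with 1 library left out (below 0 without KO-3). The cause of these changes was not tested. Synpr, with 119 to 226 counts, had the lowest mean CPM of the members in both genotypes and the largest SE (0.27). The part of depth in that SE was not tested.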
